A study of Mus musculus with 18 samples.

Results

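The transcriptome described here is that of control WT mouse liver. Its 6 libraries were chosen by their sample titles, WT Ctrl Liver 1 to 6, out of 18 liver libraries in the series. The other 12 livers belonged to tumour-bearing mice, 6 of them WT and 6 with the genotype Alb-Cre+/+;Stat3f/f, in which Cre under the albumin promoter removes the floxed Stat3 gene in hepatocytes while other liver cells keep it. The labels enter one tumour line, PDA.69, a pancreatic ductal adenocarcinoma line low in T cells and derived from KPC mice, for all 18 samples, controls included. That the control mice carried no tumour was taken from their titles and from the series' naming of only the other groups as tumour-bearing. The sources used here do not give strain, sex, age, feeding, time of day at necropsy, or the site and time of tumour implantation. Livers were kept in TRIzol, and libraries were made from the 3′ ends of polyadenylated RNA with a QuantSeq FWD kit, so that each captured transcript gives about 1 tag whatever its length. Levels are therefore given as CPM (counts scaled to a library of 1000000), adjusted by the trimmed mean of M-values, and can be set side by side between genes. The labels number each liver separately. Control livers 1 to 3 carry numbers from 25459 to 25463, liver 4 carries 25490, and livers 5 and 6 carry 25502 and 25504. Tumour-bearing WT livers carry numbers from 25458 to 25503, and Stat3-deleted livers from 25444 to 25451. What the order of these numbers stands for is not given. Whether the mice shared cages or litters is not given, and p-values set group differences against the spread between livers within the groups.

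Hepatocytes make up most of the mass of the liver. They make and secrete most plasma proteins, including albumin, apolipoproteins, clotting factors, complement and protease inhibitors, and they carry the enzymes for amino acid, lipid, carbohydrate, bile acid and drug metabolism. Kupffer cells are the resident macrophages, stellate cells store retinoids and make matrix, fenestrated endothelium lines the sinusoids, and cholangiocytes line the bile ducts. In mice, many hepatocyte genes also differ between the sexes under the control of the growth hormone pattern, and several follow feeding, time of day, metals, interferons and protein-folding load.

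The control libraries held 5212265 to 7159148 counts each, the fewest in liver 3 and the most in liver 5. All 12 hepatocyte markers were above 10 CPM in the mean and together took 9.37% ± 1.49 (SD, n = 6) of the counts. In the first principal component of the 6541 genes averaging 10 CPM or more (49.7% of the variance), livers 5 and 6 lay at one end, at 31.3 and 15.9, and livers 1, 2 and 4 at the other, at −15.2, −20.1 and −15.0. Liver 2 was highest on the second component (19.6% of the variance), and liver 3 on the third (12.7%). As a check for a library deposited more than once, each pair of control libraries was compared over these genes: chi-square per degree of freedom ran from 11.7 to 127, above sampling noise, and all 6 were kept as separate samples. For some of the most variable genes, the CV or the call without livers 2, 3, 5 or 6 is also given below. Because whole liver was measured, fewer cells of a type and less RNA per cell cannot be told apart.

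Few genes supplied most of the counts. By mean level, 177 genes held 50% of all counts, and the number in single livers ran from 160 in liver 5 to 187 in liver 4 (173.5 ± 9.85, SD, n = 6). Of 24394 gene symbols, 11288 reached a mean of 1 CPM, 6541 reached 10 CPM, 1345 reached 100 CPM, 111 reached 1000 CPM and 8 reached 10000 CPM. Those 111 genes took 44.3% of the counts, and the 8 genes took 17.3%. At the other end, 8533 symbols had no count in any control liver, which over 38862108 counts allows a level of up to 0.0772 CPM. The 10 most abundant genes of each liver took 19.3% ± 0.640 of its counts, and the 100 most abundant took 43.4% ± 0.685 (SD, n = 6). The same measure in tumour-bearing livers is given as a description: 50% of the counts came from 58 to 163 genes in the WT group with tumours and from 122 to 147 genes in the Stat3-deleted group.

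The most abundant entry was Rn45s, the 45S precursor of ribosomal RNA, at 43333 ± 9887 CPM (SD, n = 6). It ranged from 26337 CPM in liver 2 to 54197 CPM in liver 5, or 2.86% to 5.54% of the counts. Without it, 211 genes held 50% of the remaining counts. The libraries were made from polyadenylated RNA, and how tags of this ribosomal precursor arose in them was not tested. Its counts are therefore not read as its level. The first messenger RNA was Alb (chr5:90460870-90476602), which encodes albumin, the main osmotic and carrier protein of plasma. Alb stood at 43266, 51529, 30206, 36311, 18535 and 22610 CPM in livers 1 to 6, a mean of 33743 ± 12501. Livers 5 and 6 were therefore the lowest for Alb and liver 2 the highest. Next came Apoe (chr7:19696244-19701310), a ligand for lipoprotein receptors, at 18661 ± 3465 CPM, and Ttr, the transthyretin carrier of thyroxine and of retinol-binding protein, at 14109 ± 1307 CPM. Ttr ranged only from 12089 to 15916 CPM, a narrower range than that of Alb. The 30 most abundant genes took 29.1% of the counts, and their order ended with Gnmt at 3332 CPM, just inside, and Sod1 at 3308 CPM, just outside.

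**Figure D1:**
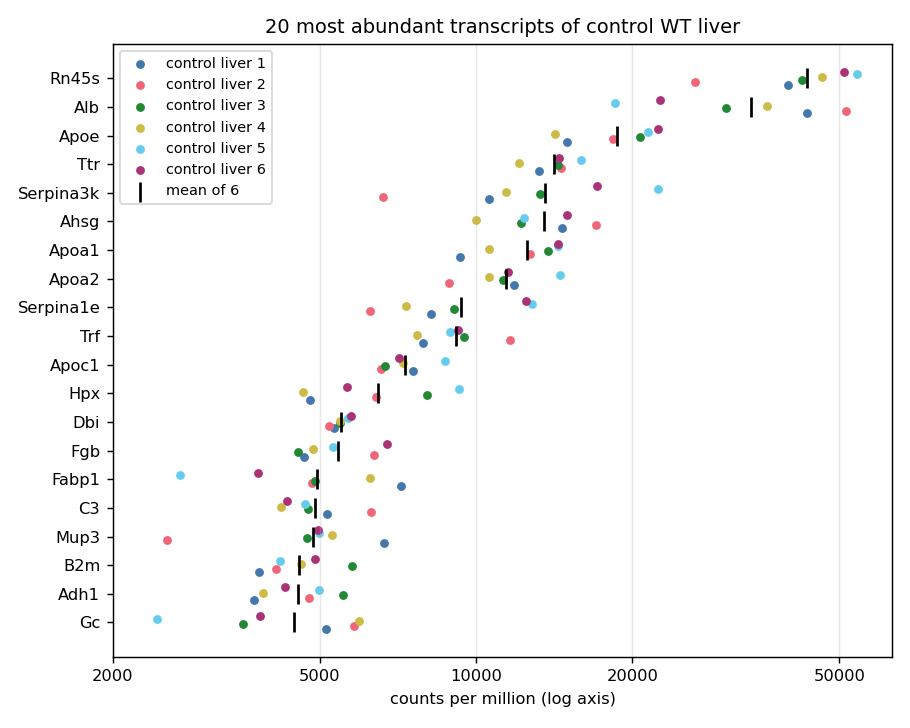
CPM of the 20 most abundant transcripts (log axis) in each of the 6 control WT livers, coloured by liver, with the mean of 6 as a black bar. Rn45s and Alb lie apart at the top, Alb spreads from 18535 to 51529 CPM, and Dbi shows 6 nearly coinciding points.

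Secreted proteins were the largest class among the lists used here, which left 46.7% of the counts in genes of no list. The 7 lists of secreted proteins, 181 measured genes in all, took 29.5% ± 1.17 of the counts (27.6% to 31.3%, SD, n = 6). Of these genes, 154 had a mean of at least 10 CPM and 7 had no count. Carrier and other plasma proteins took 11.96% ± 1.93, apolipoproteins 6.62% ± 0.642, and protease inhibitors 5.77% ± 0.733. Fibrinogen and coagulation factors took 1.86% ± 0.159 and complement 1.41% ± 0.0572. Major urinary proteins (0.935% ± 0.283) and the acute-phase proteins not held by another list (0.931% ± 0.222) each took under 1%. For every list in this class, counting error was small beside the spread between livers: the Wilson 95% interval of a single liver's share was at most 1.44% of that share wide on either side, metallothioneins apart, over all lists by function. Such intervals cover counting error only.

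Among the carriers, Ahsg, the mineral-binding fetuin A, had 13525 ± 2482 CPM and Trf, the iron carrier transferrin, 9135 ± 1417 CPM. Hpx, which binds free haem, had 6472 ± 1850 CPM with its highest value in liver 5, at 9264 CPM. Gc, the vitamin D-binding protein, ran from 2434 CPM in liver 5 to 5952 CPM in liver 4, and Sepp1, which carries selenium, from 3020 CPM in liver 5 to 6058 CPM in liver 1. Both were lower in livers 3, 5 and 6 than in livers 1, 2 and 4. Rbp4, the retinol carrier, was much steadier, at 3831 ± 252 CPM. The most variable carriers were Hamp2, a hepcidin paralogue (188 ± 283 CPM), and Serpina6, which binds corticosteroids and reached 345 CPM in liver 2 against 97.4 to 137 CPM in the other livers.

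Apolipoproteins followed a narrower pattern. Apoa1 and Apoa2, the structural proteins of high-density lipoprotein, had 12514 ± 2119 and 11433 ± 1842 CPM, and Apoc1, which modulates lipoprotein enzymes and receptors, had 7310 ± 778 CPM. Apoa1 was lowest in liver 1 (9319 CPM) and Apoa2 lowest in liver 2 (8868 CPM). Apob, the backbone of very-low-density lipoprotein, ran from 985 CPM in liver 2 to 2037 CPM in liver 5. The protease inhibitors were led by Serpina3k, at 13568 ± 5528 CPM. Serpina3k stood at 10588, 6621, 13249, 11423, 22422 and 17108 CPM in livers 1 to 6, so that livers 5 and 6 were highest and liver 2 lowest. Serpina1e, one of the clustered α1-antitrypsin genes, likewise had livers 5 and 6 highest and liver 2 lowest, from 6255 CPM in liver 2 to 12804 CPM in liver 5. Its neighbours Serpina1d (4301 ± 935 CPM), Serpina1b (3938 ± 728 CPM) and Serpina1c (3704 ± 805 CPM) had other orders. These copies are near-identical, and tags could have been split between them in counting. Pzp, a broad protease inhibitor of the α2-macroglobulin family, went the other way, from 2280 CPM in liver 5 to 4447 CPM in liver 2.

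Acute-phase transcripts were present in the control livers. Hp, haptoglobin, had 3576 ± 1196 CPM, ranging from 2437 CPM in liver 1 to 5055 CPM in liver 5. Cp, the copper-carrying ceruloplasmin, had 1267 ± 194 CPM, Orm1 1040 ± 307 CPM, and Lrg1 725 ± 421 CPM with 1431 CPM in liver 5 and 1021 CPM in liver 6. Saa1 and Saa2, the serum amyloid A proteins named in the series title, had 246 ± 168 and 103 ± 70.4 CPM. Saa1 stood at 116, 158, 245, 115, 558 and 283 CPM in livers 1 to 6, and Saa2 at 42.9, 80.4, 144, 37.6, 223 and 87.0 CPM. Liver 5 was the highest and liver 4 the lowest for both. Of the 17 acute-phase genes averaging 10 CPM or more, 10 were highest in liver 5, as were 1983 of all 6541 genes at that level. The fibrinogen chains were steadier, with Fgb at 5412 ± 926, Fgg at 2479 ± 254 and Fga at 2150 ± 228 CPM, as were C3, the central complement protein, at 4904 ± 756 CPM, and Cfb at 1076 ± 119 CPM. Within complement the most variable members were Cfd, also a marker of adipocytes (0 to 38.2 CPM), and Mbl2, a mannose-binding lectin (191 CPM in liver 5 to 761 CPM in liver 2).

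Metabolic enzymes formed the second class. The 9 lists of metabolism, 430 measured genes, took 13.6% ± 0.877 of the counts (SD, n = 6), with fatty acid oxidation (2.97% ± 0.279), amino acid and one-carbon metabolism (2.82% ± 0.268) and conjugation and detoxification (2.75% ± 0.219) the largest. Cytochromes P450 took 1.59% ± 0.105, glucose and glycogen metabolism 1.13% ± 0.0395, bile acid synthesis and transport 0.782% ± 0.107, fatty acid synthesis and storage 0.761% ± 0.179, the urea cycle 0.427% ± 0.0859 and cholesterol synthesis 0.387% ± 0.0362. Redox and iron genes, led by the superoxide dismutase Sod1 and by the peroxidase Gpx1 at 3154 ± 448 CPM, took a further 2.06% ± 0.0965.

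Dbi, an intracellular carrier of acyl-CoA, led fatty acid metabolism at 5489 ± 195 CPM, and all 6 livers lay between 5223 and 5738 CPM. Fabp1, the liver fatty acid-binding protein, had a like mean, 4942 CPM, but ran from 2691 CPM in liver 5 and 3811 CPM in liver 6 to 7176 CPM in liver 1. Gnmt, which disposes of methyl groups, had 3332 ± 571 CPM and Mat1a, which makes S-adenosylmethionine, 3183 ± 979 CPM, the latter highest in liver 2 at 5095 CPM. Pck1, which commits carbon to gluconeogenesis, ran from 611 CPM in liver 3 to 1270 CPM in liver 1. Scd1, the stearoyl-CoA desaturase, was the least steady abundant metabolic gene, at 1837, 4835, 3704, 1875, 1019 and 1561 CPM in livers 1 to 6. Livers 2 and 3 were the highest for it, and the lipogenesis list as a whole took 0.983% and 0.999% of the counts in those livers against 0.621% to 0.662% in the other 4.

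In the drug-metabolising group, Adh1, the alcohol dehydrogenase, had 4534 ± 689 CPM and Aldh2, which oxidises acetaldehyde, 3750 ± 656 CPM. The leading cytochromes P450 were Cyp2e1 (1672 ± 439 CPM), Cyp1a2 (1307 ± 470 CPM), Cyp3a11 (1242 ± 312 CPM) and the male-biased Cyp2d9 (1145 ± 545 CPM). Cyp2d9 was lowest in liver 2, at 311 CPM, and highest in livers 5 and 6, at 1770 and 1723 CPM. Of the urea cycle, Arg1 had 1871 ± 402 CPM and Cps1, which fixes ammonia, 982 ± 263 CPM; both were highest in liver 4. Cyp7a1, the rate-limiting enzyme of bile acid synthesis, was low and uneven, with 108 CPM in liver 2 against 13.3 to 42.7 CPM elsewhere.

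Nuclear genes of the respiratory chain and of cytosolic ribosomal proteins took similar shares of the counts, and single members varied. The 84 measured nuclear genes of the respiratory chain took 2.57% ± 0.164 of the counts (SD, n = 6), and 73 of them had a mean of at least 10 CPM. Uqcrq, a subunit of complex III, led at 1413 ± 101 CPM, followed by the ATP synthase subunits Atp5g3 (1206 ± 239 CPM) and Atp5k (1177 ± 169 CPM). The most variable members were Sdhd and Cox7c, which both had their lowest value in liver 5 (7.12 and 58.6 CPM) and their highest in liver 4 (41.5 and 200.2 CPM). No gene of the mitochondrial genome was among the symbols measured here. Cytosolic ribosomal proteins, 86 measured genes, took 2.54% ± 0.278, with 2.25% in each of livers 5 and 6 against 2.39% to 2.83% in livers 1 to 4. Rps14 had the highest mean, 1458 ± 142 CPM, while Rps23 (16.1 to 75.8 CPM) and Rpl7a (27.2 to 115 CPM) spread the most and were lowest in liver 5. Short messages were not shifted as a class: with genes split into 4 equal classes of transcript length, the median log2 deviation of liver 5 from the 6-liver mean was 0.03 in the shortest class and 0.07 in the longest.

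**Figure D2:**
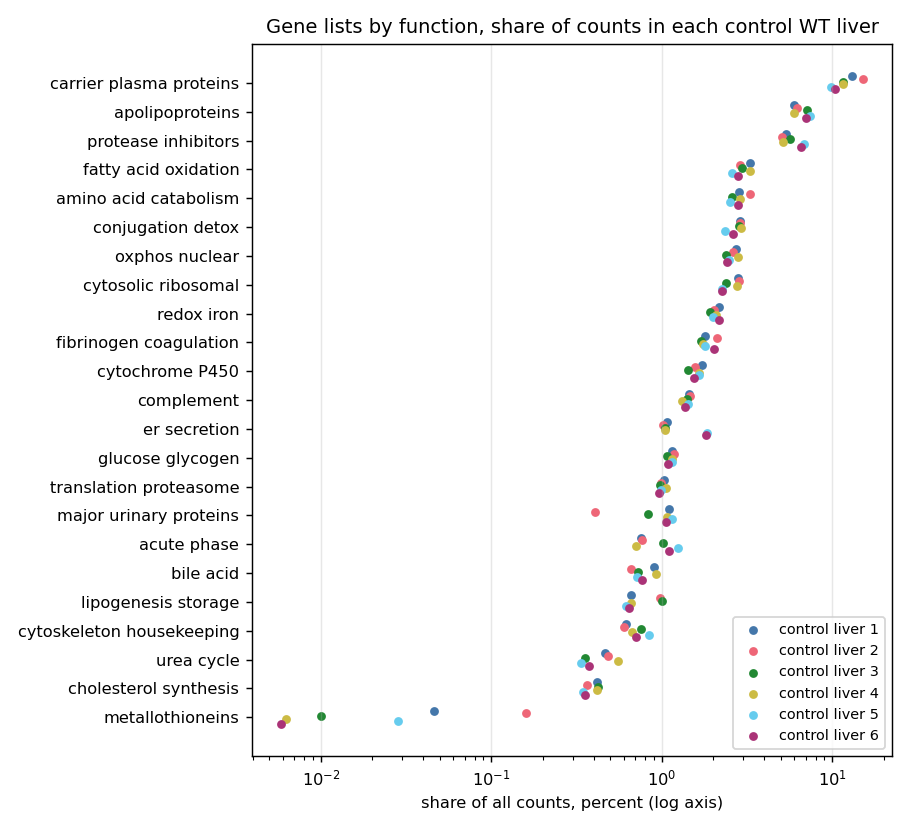
Share of all counts (percent, log axis) taken by each list of genes by function, 1 point per control WT liver. Carrier proteins, apolipoproteins and protease inhibitors lead, most lists spread little, and metallothioneins range from 0.00585% to 0.161% of the counts.

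Transcripts of cells other than hepatocytes were rare but measurable. Stellate cell and fibroblast markers took 0.113% ± 0.0153 of the counts, led by the matrix proteoglycan Dcn at 361 ± 51.1 CPM and by Sparc at 198 ± 38.8 CPM. Kupffer cell markers took 0.111% ± 0.0365, with the scavenger protein Cd5l at 193 ± 79.5 CPM and the complement component C1qa at 135 ± 41.7 CPM. Endothelial markers took 0.0712% ± 0.00683, with the receptor phosphatase Ptprb at 137 ± 21.9 CPM, the nuclease Dnase1l3 at 82.2 ± 10.6 CPM and the lectin Clec4g at 74.4 ± 17.4 CPM. The cholangiocyte list took 0.209% ± 0.0373, almost all of it Clu (1753 ± 381 CPM), which hepatocytes also make. Its defining keratins Krt7 and Krt19 had 2.99 ± 1.72 and 2.18 ± 1.23 CPM. Monocyte and recruited macrophage markers took 0.0209% ± 0.00808, neutrophil markers 0.00506% ± 0.00235 and T and NK cell markers 0.00341% ± 0.00336.

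Listed markers of blood, fat and pancreas took few of the counts. Of 12 erythroid markers, 6 had no count in the control livers, and the haem enzyme Alas2 led at 117 ± 23.4 CPM. Whether the markers without a count could be counted in these libraries was not tested, so the part of blood is not read from them. The acinar list rested on Cela1, an elastase gene also active outside the pancreas, at 78.9 ± 26.2 CPM, with 13 of 28 members at 0. The ductal tumour list summed to 0.00128% ± 0.000483 of the counts, with Msln at 4.21 ± 1.32 CPM and Epcam at 1.12 ± 0.894 CPM. Of the islet list, 6 of 8 members had no count, Ins2 and Gcg among them. Adipocyte markers moved in livers 1 and 6: Cfd had 19.96 and 38.2 CPM there against 0 to 6.63 CPM elsewhere, and Adipoq, the adipocyte hormone adiponectin, had 6.75 and 8.06 CPM against 0 to 3.62 CPM. The summed adipocyte share was 0.00635% and 0.00709% in those livers and 0.000657% to 0.00325% in the others. The part of attached fat in these values was not tested.

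Most transcripts varied little between the 6 livers. The biological coefficient of variation (CV), the SD divided by the mean after subtracting the variance that counting alone gives, had a median of 0.177 over the 6378 named genes with at least 10 CPM (predicted genes and pseudogenes left out), with quartiles of 0.121 and 0.251. A CV of at least 0.5 was reached by 158 of these genes and a CV of at least 1 by 22. The 30 most abundant genes had a median CV of 0.184, close to that of all genes. Among them Serpina3k (0.407), Alb (0.370) and Hp (0.334) had the largest CV, and Dbi (0.0351) and Rbp4 (0.0655) the smallest. edgeR's common biological CV over the tested genes was 0.277 in the control livers, 0.316 in the WT group with tumours and 0.245 in the group lacking Stat3.

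The 10 steadiest genes with at least 100 CPM were Mrpl18, Fam134a, Rpl13, Ppm1a, Uqcr10, Ndufa9, Slc27a5, Serpinf1, Derl1 and Npm1, with CVs from 0 to 0.0339. They include a mitochondrial and a cytosolic ribosomal protein, a subunit each of respiratory complexes III and I, a bile acid CoA ligase and a nucleolar chaperone. Slc27a5, the bile acid CoA ligase, was the most abundant, at 667 ± 23.2 CPM, and all 6 livers lay between 638 and 704 CPM. Mrpl18 lay between 96.6 and 104 CPM, no wider than counting error. Being chosen for their small spread, these values are a description.

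**Figure D3:**
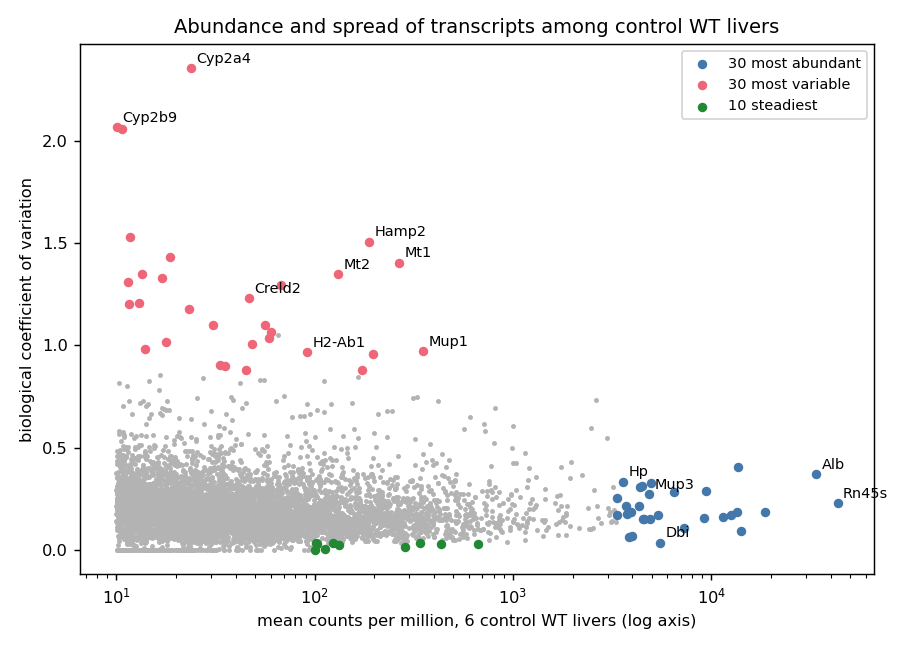
Biological CV against mean CPM (log axis) for genes with at least 10 CPM in control WT liver, grey, with the 30 most abundant (blue), the 30 most variable (red) and the 10 steadiest genes (green) marked. The abundant genes lie at or below a CV of 0.407, and Cyp2a4, Cyp2b9, Hamp2, Mt1 and Mt2 lie far above the bulk.

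The 30 most variable genes with at least 10 CPM were not spread evenly over the livers. Liver 2 held the highest value for 13 of them, liver 6 for 8, liver 3 for 6, liver 5 for 2, liver 4 for 1 and liver 1 for none. The list ran from Cyp2a4, with a CV of 2.36, to Alas1, the first enzyme of haem synthesis, with a CV of 0.878 just inside the list and Mup7 with 0.856 just outside it. For 9 of the 30, leaving out 1 liver brought the CV under 0.5. When liver 2 was left out, 17 of the 30 stayed among the 30 most variable, and 22 still had a mean of at least 10 CPM. The genes fell into sets by the liver in which they stood out, described next.

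**Figure D4:**
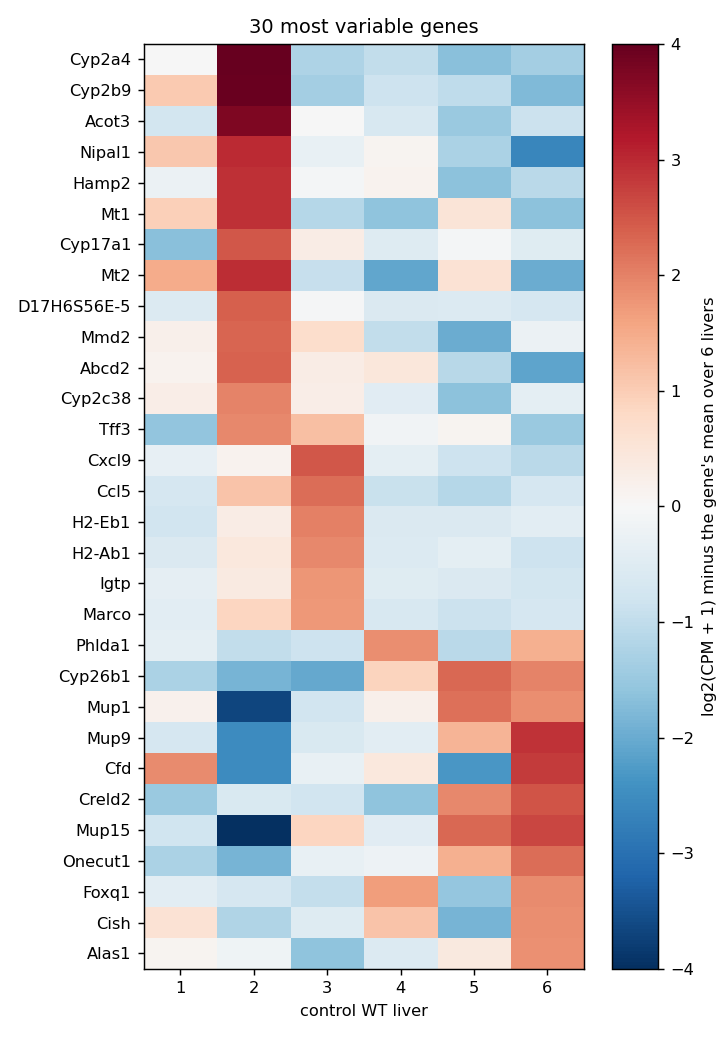
The 30 most variable genes as log2(CPM + 1) minus the gene's mean over the 6 control WT livers, red above and blue below, with columns for livers 1 to 6. Liver 2 is red for the first 13 rows, liver 3 for the MHC class II and chemokine rows, and livers 5 and 6 for Creld2, Cyp26b1 and the Mup rows.

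Liver 2 combined high female-biased with low male-biased hepatocyte transcripts. Cyp2a4 (chr7:26307192-26315088), a steroid hydroxylase that is higher in female liver, had 137 CPM in liver 2 and 0.137 to 2.58 CPM in the other 5. Cyp2b9, another female-biased P450, had 52.1 CPM against 0 to 6.03 CPM, and Acot3, a peroxisomal acyl-CoA thioesterase, 55.8 CPM against 0.547 to 3.28 CPM. Cyp17a1, which makes androgen precursors, had 50.5 CPM against 1.87 to 10.2 CPM, and Abcd2, a peroxisomal fatty acid transporter, 77.3 CPM against 2.502 to 19.9 CPM. Of the 6 female-biased genes with at least 10 CPM, 5 were highest in liver 2, the exception being Fmo2. Of all 6541 genes at that level, 984 were highest in liver 2. The floor is on a mean that includes liver 2, and Cyp2a4, Cyp2b9 and Cyp17a1 reached it only with that liver. The count of 5 of 6 was therefore partly fixed by the floor and is a description. The same limit holds for the counts of genes highest in a given liver below. The 23 measured genes of that list summed to 0.0533% of the counts in liver 2 (Wilson 95% interval 0.0516% to 0.0551%) and to 0.00296% to 0.00557% in the other livers. In these counts liver 2 had no overlap with the other 5.

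Male-biased transcripts went the opposite way in the same liver. Elovl3, an elongase of very long fatty acids, stood at 611, 29.3, 820, 490, 1268 and 1050 CPM in livers 1 to 6. Hsd3b5, a male-specific steroid dehydrogenase, had 4.93 CPM in liver 2 against 88.4 to 211 CPM, and Selenbp2 had 67.3 CPM against 562 to 1510 CPM. Cyp7b1, an oxysterol hydroxylase, had 22.9 CPM against 142 to 379 CPM. The male-biased list summed to 1.25% of the counts in liver 2, to 2.26% to 2.36% in livers 1, 3 and 4, and to 3.03% and 2.94% in livers 5 and 6. Y-linked transcripts were present in all 6 livers at like levels: Ddx3y, an RNA helicase, had 135 CPM in liver 2 and 122 to 160 CPM in the others, and Eif2s3y 19.01 CPM and 12.3 to 21.2 CPM. Without liver 2, Cyp2a4, Cyp2b9, Acot3 and Cyp17a1 averaged under 10 CPM. The CV of Cyp2a4 was then 1.015 in place of 2.36 and that of Acot3 0.501 in place of 2.06.

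The major urinary proteins, pheromone carriers that male mice excrete, shared this pattern. Their tags are uncertain between copies because the family is a cluster of near-identical genes. Mup3, the most abundant member, had 2541 CPM in liver 2 and 4732 to 6637 CPM in the others, and Mup20, known as darcin, 863 CPM against 1848 to 3000 CPM. Mup1 stood at 215, 13.9, 111, 219, 868 and 689 CPM in livers 1 to 6. Mup15 had no count in liver 2, 12.8 to 42.5 CPM in livers 1, 3 and 4, and 116 and 150 CPM in livers 5 and 6. Of the 10 members with at least 10 CPM, 8 had livers 5 and 6 as their 2 highest, compared with 20.5% of all genes at that level.

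Metallothioneins, small proteins that bind zinc and copper, were also highest in liver 2. Mt1 stood at 257, 1008, 59.4, 42.9, 189 and 41.6 CPM in livers 1 to 6, and Mt2 at 168, 471, 30.9, 13.2, 89.1 and 14.5 CPM. The genes kept the same order of livers apart from the lowest pair. They lie next to each other on chromosome 8, Mt2 at chr8:94172618-94173567 and Mt1 at chr8:94178883-94180327. Since they moved together, the RefSeq promoter sequence of each (GRCm38.p6, the assembly of mm10) was searched in the 250 bases before the start for the core of the metal response element, TGCACNC or TGCGCNC, on both strands. Of all 32851 RefSeq promoters, 21.4% held a match in that window, so that a match is common. Mt1 had 1 match and Mt2 had 3, the last of them in the reverse orientation. They are shown in capitals 5′ to 3′ on the plus strand, which carries both genes. The Mt1 window precedes a transcript start that lies inside the span of the gene (Mt1 at chr8:94179051-94179087 and Mt2 at chr8:94172380-94172589):
Mt1: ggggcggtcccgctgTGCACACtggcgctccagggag
Mt2: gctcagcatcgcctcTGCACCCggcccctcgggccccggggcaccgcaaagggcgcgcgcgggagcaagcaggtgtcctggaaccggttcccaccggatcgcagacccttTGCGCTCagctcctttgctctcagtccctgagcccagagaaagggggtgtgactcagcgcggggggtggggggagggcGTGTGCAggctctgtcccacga

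Other genes highest in liver 2 were Hamp2, with 762 CPM against 30.9 to 109 CPM, the magnesium transporter Nipal1, with 47.3 CPM against 0 to 11.8 CPM, and D17H6S56E-5, Mmd2 and Cyp2c38. Without liver 2, the CV was 0.449 in place of 1.507 for Hamp2 and 0.165 in place of 1.328 for D17H6S56E-5. It was 0.468 in place of 1.016 for Cyp2c38 and 0.477 in place of 1.351 for Cyp17a1. Proliferation markers were low in every liver and highest in liver 2. Top2a, the DNA topoisomerase of dividing cells, had 25.5 CPM there against 3.48 to 8.97 CPM, and the list summed to 0.0254% of the counts against 0.00665% to 0.0107%. Of 14 stellate and fibroblast genes with at least 10 CPM, 10 were highest in liver 2, where 984 of all 6541 genes were, among them Col1a1 at 26.8 CPM against 8.90 to 19.7 CPM. Of 11 genes induced through the xenobiotic receptors, 8 were highest there, against the same 984 of 6541, with Cyp2b10 at 37.9 CPM against 4.31 to 16.9 CPM.

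Liver 3 stood out in antigen presentation and interferon response. H2-Ab1, a chain of the MHC class II molecule that presents peptides to helper T cells, stood at 46.2, 94.9, 268, 48.0, 53.2 and 39.5 CPM in livers 1 to 6. H2-Eb1 had 182 CPM in liver 3 against 25.7 to 54.8 CPM, H2-Aa 148 against 24.4 to 58.7 CPM, and Cd74, the invariant chain, 446 against 86.5 to 145 CPM. All 5 genes of the dendritic cell and class II list with at least 10 CPM were highest in liver 3, where 673 of all 6541 genes were, and the list summed to 0.124% of the counts there (Wilson 95% interval 0.121% to 0.127%) against 0.0212% to 0.0416% elsewhere. The dendritic cell genes Flt3 and Cd209a were under 1 CPM in every liver.

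Chemokines and interferon-induced genes were high in the same liver. Cxcl9, a chemokine that attracts T cells and is induced by interferon gamma, had 246 CPM in liver 3 against 20.02 to 47.9 CPM, and Ccl5 had 37.8 CPM against 2.74 to 16.9 CPM. Igtp, an interferon-induced GTPase, had 99.1 CPM against 16.5 to 36.6 CPM. Of 21 interferon-stimulated genes with at least 10 CPM, 16 were highest in liver 3, against 673 of all 6541 genes, whereas Isg15, Ifit3 and Rsad2, at 16.05, 22.1 and 28.3 CPM there, lay inside the range of the other livers. Markers of immune cells moved with them: all 6 monocyte and macrophage genes and all 3 neutrophil genes with at least 10 CPM were highest in liver 3, against the same 673 of 6541. The T and NK cell list summed to 0.00999% of the counts (Wilson 95% interval 0.00917% to 0.0109%) against 0.00101% to 0.00384%, with Cd3d at 14.3 CPM against 0.958 to 4.19 CPM. Kupffer cell markers were mixed: of 14 with at least 10 CPM, 6 were highest in liver 3, 5 in liver 5 and 3 in liver 2. Of all 6541 genes, 673, 1983 and 984 were highest in those livers. Marco, a Kupffer cell receptor highest in liver 3, had 118 CPM against 18.6 to 64.3 CPM. Without liver 3, the CV was 0.329 in place of 1.297 for Cxcl9, 0.337 in place of 1.037 for H2-Eb1, 0.389 in place of 0.967 for H2-Ab1 and 0.344 in place of 0.901 for Igtp. Marco (0.628 in place of 0.881) and Ccl5 (0.941 in place of 1.204) changed less. The part of these cells in the class II and interferon values was not tested.

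Livers 5 and 6 shared high transcripts of endoplasmic reticulum (ER) protein folding. Hspa5 (BiP), the main ER chaperone, stood at 1330, 1587, 1253, 1366, 5234 and 4928 CPM in livers 1 to 6. Hsp90b1, the ER form of the Hsp90 chaperone, had 2023 and 1479 CPM in livers 5 and 6 against 608 to 656 CPM, and Calr, a lectin chaperone, 1562 and 1617 CPM against 664 to 943 CPM. Pdia4, a disulfide isomerase, had 385 and 295 CPM against 107 to 162 CPM, Sdf2l1 191 and 158 CPM against 44.2 to 59.2 CPM, and Creld2 93.1 and 142 CPM against 7.17 to 15.2 CPM. For each of these 6 genes the 2 livers did not overlap with the other 4. Of 42 ER genes with at least 10 CPM, 26 (61.9%) had livers 5 and 6 as their 2 highest, where 20.5% of all 6541 genes did. The list summed to 1.84% and 1.82% of the counts in livers 5 and 6 and to 1.01% to 1.07% in livers 1 to 4. Not every member took part: the stress-induced transcription factors Ddit3 (1.55 to 3.79 CPM) and Xbp1 (73.8 and 80.2 CPM in livers 5 and 6, 48.8 to 93.7 CPM in the others) did not separate the livers, and Herpud1 was highest in liver 1, at 835 CPM.

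The promoters of these ER genes were compared for the ER stress response element, which is CCAAT and CCACG separated by 9 bases of any kind, in the 250 bases before the start and on both strands. Of all 32851 RefSeq promoters, 0.113% held it. Of the 26 ER genes with livers 5 and 6 highest, 21 had a RefSeq promoter, and 7 of these genes held the element, namely Calr, Canx, Creld2, Dnajc3, Hsp90b1, Hspa5 and Pdia6. Of the other 16 ER genes, 11 had a promoter and 0 held the element. These counts describe letters in a window, and the genes were grouped after their values were seen. The stretches are given because they carry the shared element, shown in capitals 5′ to 3′ on the gene's strand, in the reverse orientation where it reads CGTGG first. They lie at chr2:34772010-34772058 (plus strand) for Hspa5, chr10:86705518-86705671 (minus) for Hsp90b1, chr8:84847060-84847108 (minus) for Calr, chr11:50325785-50325833 (minus) for Canx, chr12:17266476-17266524 (plus) for Pdia6, chr14:118937812-118937860 (plus) for Dnajc3 and chr15:88819505-88819553 (plus) for Creld2:
Hspa5: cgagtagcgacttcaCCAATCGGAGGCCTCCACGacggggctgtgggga
Hsp90b1: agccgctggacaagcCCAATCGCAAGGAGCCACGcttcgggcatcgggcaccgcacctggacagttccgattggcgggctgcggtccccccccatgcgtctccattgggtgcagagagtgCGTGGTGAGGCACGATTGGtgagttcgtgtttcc
Calr: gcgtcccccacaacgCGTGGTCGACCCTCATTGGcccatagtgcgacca
Canx: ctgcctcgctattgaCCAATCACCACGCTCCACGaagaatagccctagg
Pdia6: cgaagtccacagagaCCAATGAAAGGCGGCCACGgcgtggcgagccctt
Dnajc3: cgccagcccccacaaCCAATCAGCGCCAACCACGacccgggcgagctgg
Creld2: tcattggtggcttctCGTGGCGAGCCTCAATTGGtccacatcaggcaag

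Other transcripts separated livers 5 and 6 as well. Cyp26b1, which degrades retinoic acid, had 153 and 123.2 CPM there against 6.56 to 57.9 CPM, and Onecut1, a hepatocyte transcription factor, 51.3 and 89.9 CPM against 4.36 to 15.95 CPM. Hsph1, a cytosolic heat-shock protein, had 136 and 141 CPM against 30.6 to 42.8 CPM. In the male-biased list, 11 of 15 genes with at least 10 CPM had these livers as their 2 highest, where 20.5% of all 6541 genes did. When livers 5 and 6 were left out, the CV of Creld2 was 0.347 in place of 1.23, that of Onecut1 0.529 in place of 1.098, and 22 of the 30 most variable genes remained in the list. The livers also had the lowest Alb, the lowest ribosomal protein share and the highest share of Rn45s tags, as given above. They carry the highest label numbers of the control livers. Whether RNA quality or handling moved with these values was not tested.

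A smaller set was high in livers 4 and 6. Foxq1, a forkhead transcription factor, had 102 and 118 CPM against 9.99 to 23.3 CPM, and Phlda1 502 and 366 CPM against 64.3 to 104 CPM. Cish, an inhibitor of cytokine signalling induced by growth hormone, had 51.4 and 84.4 CPM against 5.61 to 34.2 CPM. Alas1 was highest in liver 6 alone, at 471 CPM against 42.5 to 175 CPM, and so was Mup9, at 70.5 CPM against 0.704 to 23.7 CPM. Without liver 6, the CV of Alas1 was 0.444 in place of 0.878. Of the circadian clock, Tef, Nr1d2, Hlf and Clock had CVs of 0.162, 0.190, 0.137 and 0.156, whereas Nfil3 reached 69.0 CPM in liver 5 against 22.7 to 35.0 CPM. Among genes with at least 10 CPM, the clock lists had median CVs of 0.190 (5 genes) and 0.226 (4 genes), against 0.177 for all genes. Of genes that respond to feeding state, Irs2, an adaptor of the insulin receptor, ran from 10.3 CPM in liver 1 to 71.3 CPM in liver 5, and Cyp4a14 from 107 CPM in liver 6 to 1268 CPM in liver 2. Sds, which deaminates serine in fasting, ran from 5.34 CPM in liver 5 to 49.0 CPM in liver 2.

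Set against the 12 tumour-bearing livers, these patterns differed in how far they reached. The ER list took 0.601% to 1.30% of the counts with tumours in WT mice and 0.958% to 1.20% where Stat3 was deleted, so livers 5 and 6 lay above all of them. The dendritic cell and class II list took at most 0.0545% in any tumour-bearing liver, against 0.124% in control liver 3. The female-biased list took at most 0.0136% there, against 0.0533% in control liver 2. Metallothioneins were the reverse: 0.161% in control liver 2, 0.142% to 1.504% among WT livers with tumours and 0.0393% to 0.247% among those lacking Stat3. Interferon-stimulated genes took 0.0723% to 0.194% in the former and 0.183% to 0.775% in the latter, against 0.287% in control liver 3.

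**Figure D5:**
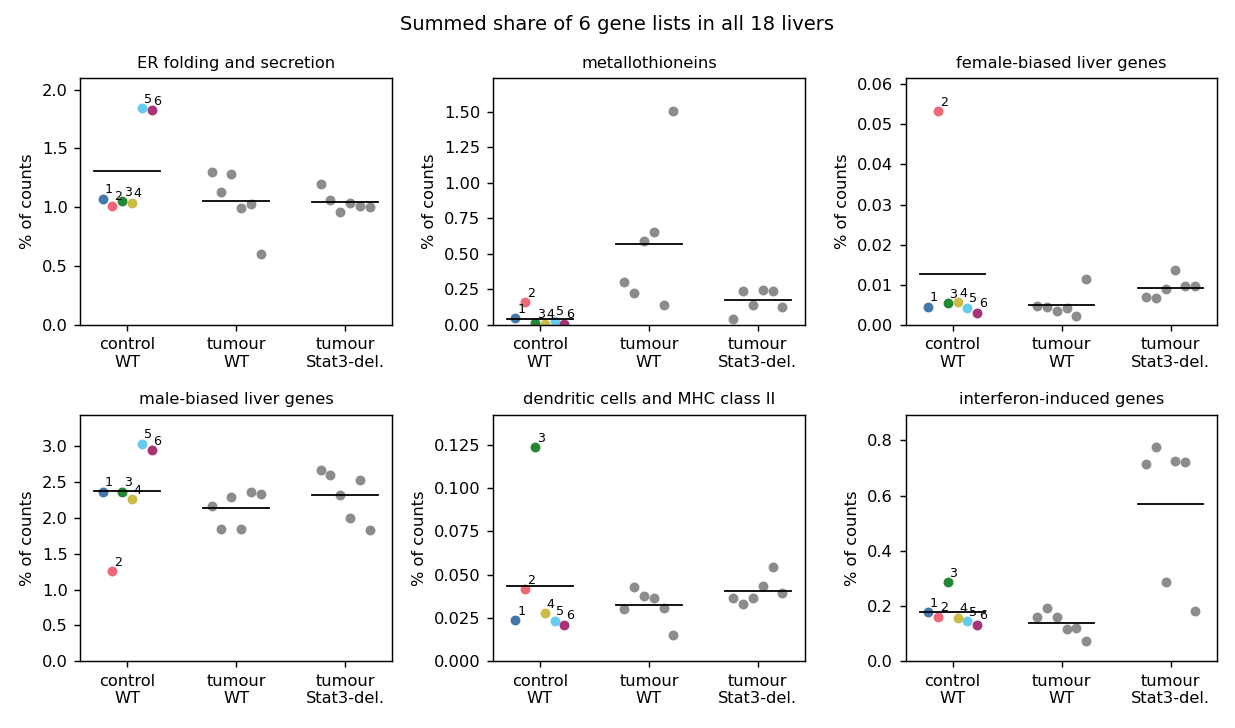
Summed share of counts (percent) of 6 gene lists in all 18 livers, 1 point per liver, with control livers numbered and the group mean as a line. Control livers 5 and 6 lead the ER panel, liver 2 the female-biased panel and liver 3 the class II panel, while tumour-bearing livers reach higher for metallothioneins and Stat3-deleted livers for interferon-induced genes.

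The control livers were not shown to vary more or less than the tumour-bearing ones. The spread of a library was taken as the root mean square of its log2(CPM + 1) differences from the mean of the other 5 of its group, over 6564 genes. The values of a group share these means and are not independent, which limits the test. This measure is used in the next sentences. The spread was 0.39 ± 0.07 in control, 0.44 ± 0.10 in WT livers with tumours and 0.34 ± 0.07 in those lacking Stat3 (SD, n = 6 each). The difference from tumour-bearing WT was −0.05 (exact permutation test, two-sided, p = 0.372, adjusted p = 0.372), and that from the Stat3-deleted group was 0.05 (exact permutation test, p = 0.208, adjusted p = 0.372, both adjusted over 2 comparisons). The most distant control libraries were liver 5, at 0.50, and liver 2, at 0.43.

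Of the 30 most abundant baseline genes, those that differed in tumour-bearing WT mice encode plasma proteins, as do most of the 30. This comparison and the next share the 6 control livers. Of 11218 genes tested with edgeR's quasi-likelihood test over all 18 libraries, 252 (2.25%) differed at an adjusted p under 0.05, 197 higher and 55 lower. With library totals alone in place of the scaling factors, the split was 116 higher and 177 lower. Of the 30 most abundant genes, 5 (16.7%) were called, all higher, where 1.76% of all genes were called higher: Hp, Hpx, Fgb, C3 and Pzp. The median log2 fold change of the 30 was 0.10, and that of all genes 0.00. Of the 111 genes of at least 1000 CPM, 17 were called higher and 2 lower, against 1.76% and 0.49% of all genes. These called genes included the cytochrome P450 Cyp2f2. Fgb rose from 5412 ± 926 to 16739 ± 6384 CPM (SD, n = 6 each; a log2 difference of 1.63, SE 0.21, with edgeR's adjusted p = 5.2e-05), Hp from 3576 ± 1196 to 12495 ± 5510 CPM (1.81, SE 0.27, adjusted p = 0.000314), Hpx from 6472 ± 1850 to 20080 ± 6381 CPM (1.63, SE 0.23, adjusted p = 0.000171) and C3 from 4904 ± 756 to 10112 ± 3134 CPM (1.04, SE 0.18, adjusted p = 0.00181). All 6 tumour-bearing WT livers were above the control mean for each of these genes. Pzp rose by 0.77 (SE 0.19, adjusted p = 0.0278), a call lost under 10 of the alternatives, with an adjusted p of 0.196 without control livers 5 and 6.

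Of the 30 most variable genes, 2 were higher and 2 lower in tumour-bearing WT, against 0.49% of all genes called lower. They were chosen on the control livers that this comparison shares. Mt1 rose from 266 ± 374 to 4140 ± 4234 CPM (a log2 difference of 3.96, SE 0.78, with edgeR's adjusted p = 0.0061) and Mt2 from 131 ± 177 to 2539 ± 2848 CPM (4.27, SE 0.82, adjusted p = 0.00469). Without control livers 5 and 6 the adjusted p of Mt1 was 0.0505. Onecut1 was lower by 2.16 on the log2 scale, with an adjusted p of 0.0417 that became 0.596 without livers 5 and 6. Cyp2a4 was called lower (adjusted p = 0.0417) with all livers, and without control liver 2 the adjusted p was 0.816. The Onecut1 call was lost under 9 of the alternatives and the Cyp2a4 call under 7. D17H6S56E-5 was called higher without control liver 2 (log2 difference 1.90, adjusted p = 0.00163), and Hamp2 was called lower without control livers 5 and 6 (−2.84, adjusted p = 0.0283). With all livers Hamp2 was also called lower by DESeq2 (adjusted p = 0.0351) and by edgeR with no filter beyond 1 count (0.0387). None of the 10 steadiest genes was called by edgeR or by DESeq2, where edgeR called 2.25% of all genes. Of the 10, 2 had an unadjusted p under 0.05.

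Stat3-deleted tumour-bearing livers differed from control livers in 544 of 11218 genes (4.85%), 246 higher and 298 lower. With library totals alone the split was 139 higher and 372 lower. Control and deleted livers differ in tumour, in genotype and in the range of their label numbers, which cannot be told apart in this comparison. Of the 30 most abundant genes, 2 were higher, where 2.19% of all genes were: Ttr rose from 14109 ± 1307 to 22278 ± 2998 CPM (a log2 difference of 0.66, SE 0.17, with edgeR's adjusted p = 0.0271) and B2m, the light chain of MHC class I, from 4569 ± 704 to 6918 ± 1537 CPM (0.60, SE 0.16, adjusted p = 0.0376). The Ttr call was lost under 5 of the alternatives and the B2m call under 11. Without livers 5 and 6, the adjusted p values were 0.0543 for Ttr and 0.0954 for B2m. DESeq2 called 6 of the 30, and it called 860 genes in all, against 544 with edgeR. Without control liver 2, Alb was called higher (0.86, adjusted p = 0.0443) and Rn45s lower (−0.69, adjusted p = 0.0251), and without control liver 6 Serpina1c was called higher (0.80, adjusted p = 0.0427). The median log2 fold change of the 30 was 0.17, against −0.01 for all genes.

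Of the 30 most variable genes, 1 was higher and 4 lower in the Stat3-deleted group, against 2.66% of all genes called lower; the genes were again chosen on the shared control livers. Igtp rose from 35.4 ± 31.99 to 479 ± 292 CPM (a log2 difference of 3.77, SE 0.49, with edgeR's adjusted p = 0.000354), in 6 of 6 livers. Onecut1 fell from 30.6 ± 33.6 to 2.06 ± 1.27 CPM (a log2 difference of −3.88, SE 0.62, with an adjusted p of 0.00115), and its call held under every alternative run. Mup15 fell from 56.1 ± 61.8 to 3.23 ± 3.03 CPM (−4.15, SE 0.97, adjusted p = 0.0168), but the adjusted p without livers 5 and 6 was 0.14. Mup9 and Cish were also called lower, at adjusted p values of 0.0468 and 0.0291, and without control liver 6 these were 0.239 and 0.096. The Mup9 call was lost under 11 of the alternatives and the Cish call under 7. Mt1 and Mt2 were not called with all livers in edgeR but were called higher without control liver 2, at adjusted p values of 0.0106 and 0.0121. Mt2 was also called with DESeq2 (adjusted p = 0.0457) and in a fit of the 2 groups alone (0.0498). Cyp2a4 was not called with all livers (log2 fold change −1.53, adjusted p = 0.41), but without control liver 2 it was called higher, at 3.15 (adjusted p = 0.0136). Cyp2b9 (3.60, adjusted p = 0.00734), Acot3 (2.83, adjusted p = 0.013), Nipal1 (2.61, adjusted p = 0.029) and Cyp2c38 (1.33, adjusted p = 0.0211) were likewise called higher, and Phlda1 (−1.49, adjusted p = 0.0474) lower, without control liver 2. Without control liver 3, H2-Eb1 (0.86, adjusted p = 0.0304) and Marco (1.91, adjusted p = 0.0159) were called higher. Mmd2 was called lower without control livers 5 and 6 (−2.23, adjusted p = 0.0196). With all livers it was also called lower by DESeq2 (adjusted p = 0.0443). In edgeR it was called lower with library totals alone (0.0443) and with no filter beyond 1 count (0.0453). Of the 10 steadiest genes, edgeR and DESeq2 called 0, where edgeR called 4.85% of all genes. Of the 10, 3 had an unadjusted p under 0.05.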

How the data were processed

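Counts per gene from 18 mouse liver libraries (3′ end RNA sequencing) were used as the authors deposited them, and the values are whole, unnormalized counts. Reads were aligned with STAR to mm10, per the submitters' processing notes. The counting tool, annotation, strand setting and STAR version were not given in the sources used here. Overlapping and antisense transcripts therefore cannot be separated. Of 24421 rows, 27 carried spreadsheet date numbers in place of symbols (25 distinct names, 0.103% to 0.166% of the counts) and were left out, which leaves 24394 symbols.

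CPM were scaled by the trimmed mean of M-values in edgeR 4.0.16 (R 4.3.3). Differences were tested in edgeR's quasi-likelihood fit over all 18 libraries on 11218 genes kept by filterByExpr, with Benjamini-Hochberg adjustment over all of them, and with DESeq2 1.42.0 as an alternative. Biological CVs used means of at least 10 CPM (100 for the steadiest). Simulated fold changes of 4 were recovered for 93 of 100 genes in the comparison of tumour-bearing with control WT and for 94 of 100 with the Stat3-deleted group; for changes of 2 it was 58 and 61 of 100, over 11218 genes.

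Named genes were the 30 of highest mean, the 30 most variable, the 10 steadiest, and from each of 60 lists the 4 highest and 2 most variable members; the text names those it describes, and ER, class II, interferon and sex-biased genes beyond this rule were chosen after their values were seen. Of the 30 most abundant genes, 1 is counted but not reported here by name. The 6 livers and the gene lists were chosen with earlier results of these data known. Positions and promoters came from RefSeq (GRCm38.p6). Alternatives were other scalings, depths, filters and measures of spread, each library left out, each pair of groups fitted alone, a replicate block, Rn45s left out, and livers 5 and 6 left out, the last 2 chosen after seeing the data.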

Additional observations from a re-analysis of the deposited data

Results flagged for a closer look

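Over the 6 control livers, 70 genes (the 30 most abundant, the 30 most variable and the 10 steadiest) and 64 list shares were checked with Dixon's criterion for a single value lying apart, and 29 met it. Chance alone gives about 1 in 20 such sets where values are independent and not selected. The 30 most variable and 10 steadiest genes were chosen by their spread over these 6 livers, so that rate does not hold for them. Genes of a list are not independent either. Liver 2 accounted for 15 and liver 3 for 8.

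In liver 2 the values lying apart, all high, were those of Cyp2a4 (137 CPM), Cyp2b9 (52.1 CPM), Acot3 (55.8 CPM), Nipal1 (47.3 CPM), Hamp2 (762 CPM), Mt1 (1008 CPM), Cyp17a1 (50.5 CPM), Mt2 (471 CPM), D17H6S56E-5 (62.9 CPM), Mmd2 (43.8 CPM), Abcd2 (77.3 CPM) and Cyp2c38 (53.6 CPM). Among lists they were the metallothioneins (0.161% of counts), female-biased genes (0.0533%) and proliferation genes (0.0254%).

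In liver 3, Cxcl9 (246 CPM), H2-Eb1 (182 CPM), H2-Ab1 (268 CPM) and Igtp (99.1 CPM) lay apart on the high side. So did the interferon (0.287% of counts), neutrophil (0.00949%), T and NK cell (0.00999%) and class II lists (0.124%).

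Single high values were found for Aldh2 (5005 CPM) in liver 5, for Serpina1c (5234 CPM), Mup9 (70.5 CPM) and Alas1 (471 CPM) in liver 6, and for the clock genes of the phase opposite to the Per genes (0.0183% of counts) in liver 5. The muscle list in liver 1 took 0.000328% of the counts, which is near the level of single tags.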

How the results depend on the processing

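Leaving out Rn45s gave 211 genes for 50% of the counts in place of 177 and a secreted share of 30.9% in place of 29.5%. The list of 30 most variable genes shared 19 members with that at a floor of 5 CPM, 11 at 50 CPM (where only 11 were eligible), 12 by the median absolute deviation, and 17 to 28 with 1 control liver left out, the fewest without liver 2. The common biological CV of the control livers was 0.295 with no filter beyond 1 count and 0.253 to 0.287 with 1 liver left out. Counts of called genes in tumour-bearing WT were 128 in a fit of the 2 groups alone, 128 without control livers 5 and 6, 462 with DESeq2, and 132 to 462 with 1 library left out. In the Stat3-deleted group they were 892, 254, 860 and 258 to 754. The libraries whose removal moved a count by over 1.5 times were control 4 and 6 and tumour-bearing WT 1, 3 and 4 in the first comparison, and control 1, 4 and 5 and Stat3-deleted 2, 3 and 5 in the second. Cyp2a4 turned direction in the second comparison without control liver 2 (log2 difference 3.15, edgeR adjusted p = 0.0136), and with 1 library left out its values ran from −1.87 to 3.15. A replicate block, which called 219 and 570 genes, also turned its sign (1.71, adjusted p = 0.407). Equal numbers do not mark shared animals: a correlation of deviations over 0.1 held for 2 of 6 same-numbered pairs in the first comparison and 1 of 6 in the second, and 1 and 0 control livers matched their own number best. The causes of these changes were not tested. Depth limits the lists near single tags. By their totals for counts (within 1.5 times), by 1 SD for values and by side of the test for tests, the other 102 values of the main results did not move. The split moved further: over the alternatives, 106 to 309 genes were called higher and 17 to 177 lower in the first comparison, and 126 to 411 higher and 125 to 497 lower in the second.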
